A study of Mus musculus with 49 samples.

Results

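ORR1B, ORR1C, ORR1D, ORR1E, ORR1F and ORR1G are the older relatives of ORR1A among the ORR1 elements, a group of mammalian apparent LTR retrotransposons (MaLR). Of 148433 annotated insertions named ORR1B to ORR1G, 625 had 1 or more reads in 25% or more of the TBP experiment's embryos, that is in 5 or more of 18, and these expressed insertions are described here. They stood among 40760 transposable element (TE) insertions that passed the same rule and 3864699 that were annotated. MaLR elements have long terminal repeats (LTRs) around an internal part that codes for none of the proteins needed to copy them, and most copies in the mouse genome are solitary LTRs left by recombination. An LTR carries promoter sequence, and MaLR LTRs are known to start transcripts in oocytes and cleavage embryos, also as alternative promoters and first exons of genes. TBP is the TATA-binding protein, which helps to place the transcription machinery at promoters, and FOXJ3 is a forkhead transcription factor.

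Single late 2-cell embryos came from matings between F1(C57BL/6JxCBA/H) females and F1 males. They were profiled with Smart-seq+5', in which reads from transcript 5' ends can be told from internal fragments. Zygotes were collected 17 to 18 h after hCG and injected with an antibody, and 4 h later with mCherry-Trim21 mRNA, so that the ubiquitin ligase Trim21 degrades the protein bound by the antibody (Trim-Away). Loss of function (LOF) embryos received an antibody against TBP or FOXJ3, and CONTROL embryos mouse IgG (for TBP) or rabbit IgG (for FOXJ3) with the same mRNA, and all were taken 48 h after hCG. Insertion counts were analysed in 9 TBP LOF and 9 of 10 CONTROL embryos with at least 500000 counted reads, and counts of whole subfamilies also in 16 of 17 FOXJ3 LOF and all 13 CONTROL embryos. The labels do not tie single TBP embryos to their collections, and the p-values measure the spread between embryos.

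Counted reads ranged from 1285128 to 4159885 in the TBP LOF and from 1148892 to 5425733 in the CONTROL embryos. Counts were divided by size factors from ERCC spike-in RNA (normalized counts), which reached 4.14 in LOF embryo 11 and 2.95 in CONTROL embryo 9, the deepest libraries of their groups. Tbp, the targeted gene, had 6.59 to 151 normalized counts (median 83.3) in LOF and 195 to 672 (median 280) in CONTROL embryos, and its log2 fold change was -2.15 ± 0.42 (SE) with an adjusted p of 0.000641 in edgeR's quasi-likelihood test. Trim-Away acts on the protein, which mRNA counts do not measure. The mCherry-Trim21 construct's log2 fold change was 0.11 (adjusted p = 0.892), with reads in all 18 embryos. All 10 late 2-cell marker genes had reads, with a summed normalized count of 600 to 2374 in LOF and 292 to 1376 in CONTROL embryos, and Tcstv3 was higher. Of 8 oocyte and maternal genes 1, Zp3, was lower. The summed normalized count of the oocyte and maternal genes was 1874 to 6136 in LOF and 1713 to 5559 in CONTROL embryos. Of 8 cumulus and granulosa genes 4 had no read in these embryos and the list's sum stayed between 0 and 47.2 in each embryo, with Tnfaip6 lower in LOF. The part of maternal or other cells' RNA in the results on insertions was not tested.

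ORR1B, the youngest of these subfamilies, had the most expressed insertions. It had 273, ORR1C 105, ORR1D 132, ORR1E 47, ORR1F 54 and ORR1G 13. As a share of the annotated copies this was 0.892% for ORR1B, 0.472% for ORR1C and 0.316% for ORR1D, and then 0.189% for ORR1E, 0.225% for ORR1F and 0.266% for ORR1G, so that the fall ended at ORR1E. A further member, named ORR1F_dup5674_ORR1A1_v, is filed under ORR1A1_v in the authors' annotation and was counted in the total but in no subfamily. The share of copies with a read in any embryo moved less, from 7.39% for ORR1B to 4.04% for ORR1G. Internal parts were expressed more often than LTRs, at 0.875% against 0.382% of the annotated copies of ORR1B to ORR1G. In ORR1B these were 54 of 3099 (1.74%) ORR1B1-int and 16 of 892 (1.79%) ORR1B2-int insertions. Of the LTRs they were 148 of 17849 (0.829%) ORR1B1 and 55 of 8774 (0.627%) ORR1B2 insertions. Not each internal part had the higher share, as ORR1C1-int had 0.474% and ORR1C1 0.587%. The differences between these shares were not tested, since reads of similar copies are not independent.

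**Figure D1:**
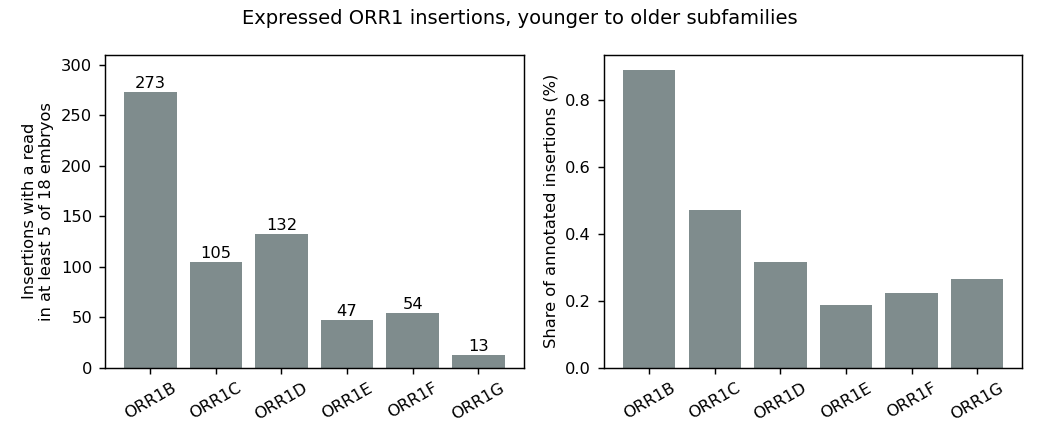
Number of expressed ORR1 insertions (left) and their share of all annotated insertions in percent (right) for ORR1B to ORR1G, LTRs and internal parts together. The number is 273 in ORR1B, between 47 and 132 in ORR1C to ORR1F and 13 in ORR1G, and the share falls from 0.892% in ORR1B to 0.189% in ORR1E.

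Most expressed insertions had few reads. The median was 22 reads over the 18 embryos, or 1.29 normalized counts per embryo, against 32 reads and 1.95 normalized counts for all TE insertions tested. At the edge of the rule lay 163 insertions with a read in 5 embryos (median 11 reads), and just outside it 277 with a read in 4 embryos (median 8 reads). Another 5408 had reads in 1 embryo only. A read was found in all 18 embryos for 14 insertions, 10 of them ORR1B, 2 ORR1C and 2 ORR1D. The 625 insertions held 63.2% of the 54491 reads counted on ORR1B to ORR1G copies, from 76.0% for ORR1B to 35.7% for ORR1E. Reads were concentrated, since the 10 insertions with most reads held 32.1% of the reads of the 625 and ORR1B1_dup13531 alone 12.9%. The tables name each insertion by its subfamily and a running number and give no position, so no coordinates, lengths or sequences are reported and levels are not compared per length.

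In TBP LOF embryos fewer of these insertions had a read. Between 196 and 289 (median 224) of the 625 were detected per LOF embryo and between 282 and 390 (median 340) per CONTROL embryo, the groups overlapping at LOF embryo 5 and CONTROL embryo 3. More CONTROL than LOF embryos had a read for 420 insertions (67.2%), and more LOF embryos for 136 (21.8%). Over all TE insertions tested these shares were 50.2% and 30.6%. The rule counts embryos with a read, and 266 of the 625 met its 25% in CONTROL embryos only and 69 in LOF embryos only, so these counts describe the chosen insertions and are no test. No read in any LOF embryo was counted for 39 of the 625 (6.24%, against 2.73% of TE insertions) and none in any CONTROL embryo for 3. Fewer embryos expressing an insertion and fewer transcripts per embryo cannot be told apart at these counts.

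Summed over the insertions of a subfamily, normalized counts were lower in LOF than in CONTROL embryos in the median, with overlapping ranges for each letter. The sums run over the 625 insertions, of which 266 reached the rule's share of embryos in the CONTROL group only and 69 in the LOF group only. They carry the effect of this choice and are no test, and the median log2 fold change of all features was -0.74. ORR1B summed to 303 to 1547 (median 752) in LOF and 743 to 1736 (median 1181) in CONTROL embryos. ORR1C summed to 63.0 to 256 (median 152) and 213 to 438 (median 349). For ORR1D the medians were 169 and 502, and LOF embryos 1, 2 and 8 lay at 627, 446 and 383, where CONTROL embryos spanned 275 to 625. ORR1E had medians of 56.4 and 94.4, ORR1F of 89.6 and 265, and ORR1G of 13.3 and 39.9 in LOF and CONTROL embryos. CONTROL embryo 9 had the lowest CONTROL sum for ORR1B, ORR1C, ORR1D and ORR1F. Per 1000000 counted reads other than spike-ins, all 625 insertions together took 594 to 1101 reads (median 1013) in LOF and 824 to 1419 (median 1081) in CONTROL embryos.

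**Figure D2:**
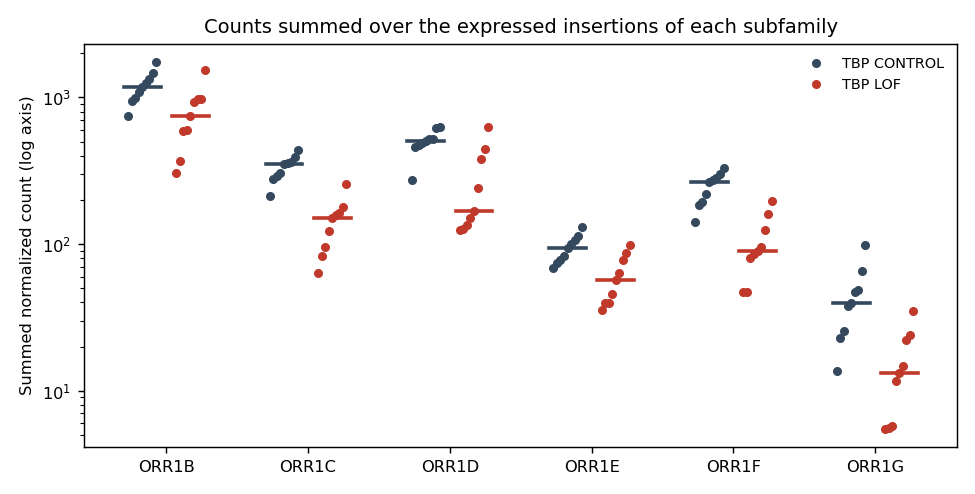
Normalized counts summed over the expressed insertions of each subfamily (log axis), 1 point per embryo with lines at the medians, for 9 CONTROL and 9 TBP LOF embryos. The LOF medians lie below the CONTROL medians in each subfamily, from 752 against 1181 in ORR1B to 13.3 against 39.9 in ORR1G, and the points of both groups overlap. The sums include insertions that met the rule through CONTROL embryos alone.

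Tested one by one together with genes and other TE insertions (59208 features), 111 of the 625 insertions were lower in TBP LOF embryos and 1 was higher. The share that was lower, 17.8%, was next to the background, as 17.7% of all features tested were lower, 13.3% of the TE insertions and 27.5% of the genes. The 1 higher insertion was 0.16% of the 625, where 0.652% of all features and 0.694% of TE insertions were higher. At an unadjusted p under 0.05, 215 of the 625 (34.4%) differed, beside 30.1% of all features. On simulated counts a larger share of the calls than the threshold allows fell on unchanged features, so that single calls and the count of 111 are less certain than the threshold states. The log2 fold change was under 0 for 487 insertions (77.9%, against 70.3% of all features) and its median was -1.34, the median of all features being -0.74. Setting insertions without a read in one group to a floor of 3 counts over the group left the median at -1.34.

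The rule itself bears on this median, because an insertion could enter through one group alone. Of the 625, 290 had reads in at least 25% of the embryos of both groups, 266 reached this in CONTROL embryos only and 69 in LOF embryos only. Tested among the 41792 features that reached it in both groups, 50 of the 290 (17.2%) were lower, beside 19.5% of all features. In edgeR's test 0 of the 290 were higher, where 0.747% of all features were. At an unadjusted p under 0.05, 77 of the 290 (26.6%) were lower and 8 (2.76%) higher, beside 27.9% and 2.34% of all features. In this set the median was -0.80 against -0.61. With the low-count filter built into edgeR 15 insertions were left, of which 5 were lower and 1, ORR1B2_dup4048 (named after its values were seen), was higher. The background was then 40.5% lower and 1.57% higher, and the median of the 15, -0.24, was above that of all features, -0.69.

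Scaling moved the whole distribution. With TMM, which assumes that most features do not change, the median of all features went from -0.74 to -0.06 and 47 of the 625 insertions were lower and 15 higher. The background was then 7.69% lower and 4.16% higher, beside 7.52% and 2.40% of the 625. With DESeq2's size factors 44 were lower and 18 higher, where 7.26% of all features were lower and 5.39% higher. The median of the 625 was -0.64 with TMM and -0.51 with DESeq2's size factors. Its difference from the median of all features was -0.58 with TMM, -0.54 with DESeq2's size factors and -0.60 with spike-in scaling, on the log2 scale. With no filter on low counts, where all 8036 insertions with a read were tested, the median was -1.11 for them and -1.11 for all features.

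Read by subfamily, the median log2 fold change was -1.58 for ORR1B, -1.40 for ORR1C, -1.01 for ORR1D, -0.86 for ORR1E, -0.90 for ORR1F and -0.77 for ORR1G. Lower were 53 of 273 ORR1B insertions (19.4%), 21 of 105 ORR1C (20%), 20 of 132 ORR1D (15.2%), 7 of 47 ORR1E (14.9%), 8 of 54 ORR1F (14.8%) and 2 of 13 ORR1G (15.4%). These shares lie around the 17.7% of all features. The medians include insertions that reached 25% of the embryos in the CONTROL group only. These were 46.9% of the ORR1B, 48.6% of the ORR1C and 37.9% of the ORR1D insertions. For ORR1E, ORR1F and ORR1G they were 31.9%, 33.3% and 23.1%. Among the insertions read in 25% or more of the embryos of both groups the medians were -0.95 for ORR1B (126 insertions), -0.70 for ORR1C (44), -0.77 for ORR1D (64), -0.37 for ORR1E (21), -0.37 for ORR1F (26) and -0.69 for ORR1G (9), so that the order of the subfamilies changed. The differences between the subfamilies were not tested, and the median level was 1.41 normalized counts in ORR1B, 1.34 in ORR1C, 1.14 in ORR1D, 0.92 in ORR1E, 1.2 in ORR1F and 1.25 in ORR1G. In the younger ORR1A, fitted with the same embryos, 1082 of 2869 insertions (37.7%) were lower and 3 higher, with a median of -1.88. Among insertions of MTA to MTE, from the other major MaLR family of rodents, 103 of 6014 (1.71%) were lower and 25 higher (median 0.17). Among MT2_Mm insertions, the LTRs of MERVL, 60 of 2063 (2.91%) were lower and 82 higher (median 0.25). In the CONTROL group only, 25% of the embryos was reached by 859 ORR1A, 541 MTA to MTE and 83 MT2_Mm insertions. Their median levels were 2.47, 1.61 and 8.87 normalized counts, and the lists were not tested against each other.

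**Figure D3:**
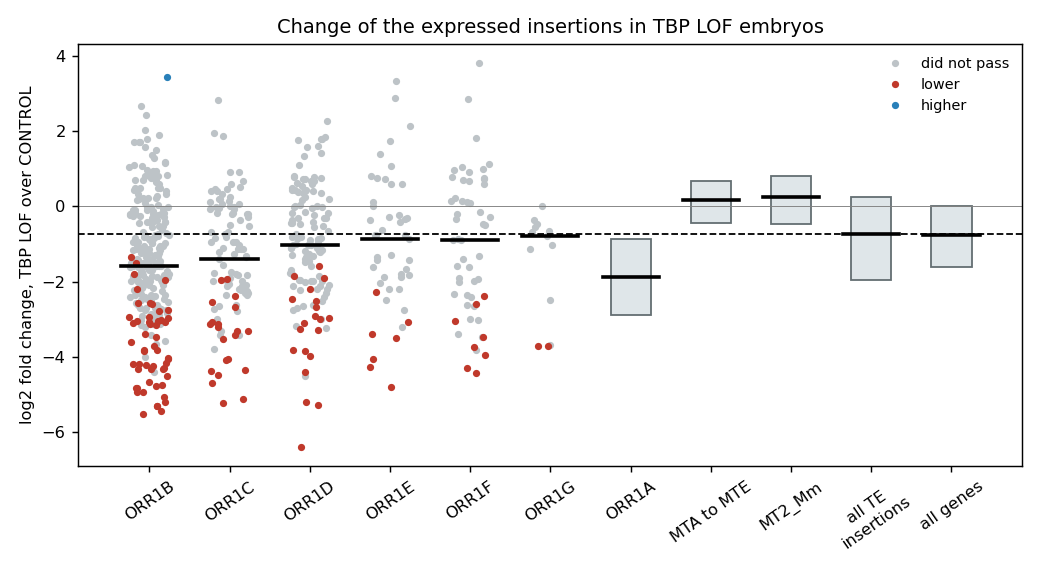
Log2 fold changes, TBP LOF over CONTROL, of each expressed insertion by subfamily (points, red where lower, blue where higher, grey where the test was not passed) and of other lists (boxes from the lower to the upper quartile). Solid lines are medians and the dashed line is the median of all features, -0.74. The medians go from -1.58 in ORR1B to -0.77 in ORR1G. They include insertions that reached the rule's share of embryos in the CONTROL group only, 46.9% in ORR1B and 23.1% in ORR1G.

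Calls depended on the level. Of 46 insertions under 0.5 normalized counts on average 1 was lower, and of 191 from 0.5 to 1 there were 8. As shares these were 2.17% and 4.19%, against 0.318% and 3.84% of TE insertions and 0.416% and 3.44% of genes at those levels. From 1 to 2 they were 34 of 203 (16.7%, against 9.86% of TE insertions and 7.16% of genes). From 2 to 5 they were 36 of 115 (31.3%, against 16.9% and 16.4%) and from 5 to 20 they were 27 of 58 (46.6%, against 25% and 28%). Of the 12 insertions with 20 or more, 5 were lower (41.7%, against 20.6% and 48.5%). These shares carry the effect of the rule described above and were not tested against each other. LTRs and internal parts were lower at 90 of 522 (17.2%) and 21 of 103 (20.4%), both near the 17.7% of all features. Among the internal parts ORR1B1-int had 14 of 54 lower (25.9%, median log2 fold change -1.82), beside 27 of 148 ORR1B1 LTRs (18.2%, median -1.43). None passed the test among the few insertions of ORR1C1-int, ORR1D-int, ORR1D1-int, ORR1D2-int, ORR1F-int and ORR1G-int (1 to 7 each).

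Of the 111 lower insertions, 65 reached 25% of the embryos in the CONTROL group only, so that the choice of insertions bears on their direction. The other 46 had reads in at least 25% of the embryos of both groups. Where reads were required in both groups, these 65 were left out before testing, and the 46 kept their call. Among the 65, 30 had no read in any LOF embryo and 35 had a read in under 25% of the LOF embryos. The fitted log2 fold changes of the 30, drawn in the plot by subfamily, depend on the model and are no bounds. Taking 3 counts over the LOF embryos as the floor, the CONTROL means of these 30 were 4.19-fold to 19.9-fold higher. These ratios leave out the spread of the CONTROL values. Of all 111, another 27 had 1 to 3 reads and 54 more than 3 reads over the LOF embryos. LOF and CONTROL values did not overlap for 8 insertions (1.28%), all of them lower, where 2.71% of all features and 0.785% of TE insertions showed this. They are 4 ORR1B1 insertions (ORR1B1_dup7613, ORR1B1_dup7257, ORR1B1-int_dup1506 and ORR1B1-int_dup1052), ORR1D2_dup1896, ORR1E_dup20975, ORR1F_dup19775 and ORR1F_dup22149. Of the 8, 4 reached 25% of the embryos in the CONTROL group only. A set of 58 of the 111 stayed lower whichever of the 18 embryos was left out, and 42 of these were also lower with TMM, with DESeq2's size factors and in DESeq2. These fits kept the insertions already chosen, so they do not test the choice. Both sets include insertions that reached 25% of the embryos in the CONTROL group only, such as ORR1C1_dup1936 and ORR1D2_dup1896. The matching shares over all features were not counted.

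ORR1B1_dup13531 was the ORR1B insertion with most reads. Its normalized counts were 44.2 to 448 (median 190) in LOF and 16.9 to 385 (median 100) in CONTROL embryos. The groups overlapped over most of their range and the log2 fold change was 0.84 ± 0.47 (SE, adjusted p = 0.243), passing the test with TMM (1.69, adjusted p = 0.0279) and with DESeq2's size factors (1.82, adjusted p = 0.0144). LOF embryo 11 held 1798 of its 4445 reads. ORR1B1_dup3504 had 12.5 to 129 (median 34.8) in LOF and 27.0 to 125 (median 65.6) in CONTROL embryos and did not pass (log2 fold change -0.42 ± 0.40, adjusted p = 0.534).

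The lowest p of the ORR1B insertions belonged to an internal part. ORR1B1-int_dup1506 had 13.4 to 44.5 normalized counts (median 21.7) in the 9 CONTROL embryos and reads in 3 of 9 LOF embryos, of at most 4.10. Its log2 fold change was -5.29 ± 0.71 (adjusted p = 1.15e-05). ORR1B1_dup7613, an LTR with reads in every embryo, fell from 34.6 to 106 (median 68.6) in CONTROL to 2.90 to 25.7 (median 7.37) in LOF embryos, where the log2 fold change was -2.59 ± 0.43 (adjusted p = 0.000133). Here too each LOF embryo lay below each CONTROL embryo. ORR1B1_dup15403 was the 1 higher insertion, with 0 to 6.89 normalized counts (median 2.41) in LOF embryos and a single read in CONTROL embryo 10. Its 27 LOF reads against 1 gave a ratio of 18.3 (95% counting interval 3.01 to 748, adjusted p = 0.0392). It met the rule through LOF embryos alone, so that its direction, too, follows from the choice of insertions. The call was kept without LOF embryo 7, 8 or 11 or CONTROL embryo 10, and lost without any one of the other 14 (log2 fold change 3.07 to 4.55).

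Both ORR1C insertions with the highest mean counts were lower. ORR1C1_dup3098, an LTR read in all 18 embryos, had 5.21 to 39.0 normalized counts (median 16.6) in CONTROL and 0.612 to 9.53 (median 1.84) in LOF embryos, and its log2 fold change was -3.07 ± 0.51 (adjusted p = 6.99e-05). CONTROL embryo 9 held 43.2% of its reads, and the value without it was -2.87. The internal part ORR1C2-int_dup241 had 0 to 47.0 (median 18.3) in CONTROL and 0 to 10.7 (median 2.41) in LOF embryos (-2.68 ± 0.58, adjusted p = 0.00115). ORR1C1_dup1936 had 36 reads in 8 CONTROL embryos and none in LOF embryos (adjusted p = 0.000587), and so met the rule through CONTROL embryos alone. With 3 counts over the LOF embryos as the floor, its CONTROL mean was 14.5-fold higher. Of the 36 reads 50% came from CONTROL embryo 9. In the other direction ORR1C2_dup1893 had 0 to 9.53 (median 3.66) in LOF and 0 to 6.77 (median 0) in CONTROL embryos and did not pass (1.88 ± 0.84, adjusted p = 0.118), except with CONTROL embryo 2 left out (adjusted p = 0.0353), with TMM (adjusted p = 0.0223) or with DESeq2's size factors (adjusted p = 0.0211).

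ORR1D1_dup458, the ORR1D insertion with the highest mean count, was read in few embryos. It had 396 and 232 normalized counts in LOF embryos 1 and 2 and no read in the other 7 LOF embryos, and 79.9 to 244 in CONTROL embryos 1, 3, 5 and 6, with 1 read in CONTROL embryo 10 and none in the other 4. Its log2 fold change was 0.39 ± 1.17 (adjusted p = 0.869) and went from -1.07 without LOF embryo 1 to 1.27 without CONTROL embryo 3. The second, ORR1D1_dup2122, was lower in LOF embryos, with 0 to 26.6 (median 11) against 25.3 to 148 (median 68.5) in CONTROL embryos (-3.10 ± 0.50, adjusted p = 0.000102). The ranges overlapped only through LOF embryo 6, the highest of its group, and CONTROL embryo 3, the lowest of its own. ORR1D2_dup1896 had 3.47 to 24.5 (median 16.3) in CONTROL embryos and a single read in LOF embryo 10, a ratio of 207 of CONTROL over LOF (95% counting interval 36.5 to 8227, adjusted p = 3.34e-05). It met the rule through CONTROL embryos alone. ORR1D2_dup3298 had 0 to 4.92 (median 3.06) in LOF and 0 to 4.99 (median 0) in CONTROL embryos (1.85 ± 0.80, adjusted p = 0.105), and passed without CONTROL embryo 4 (adjusted p = 0.0405), with TMM (adjusted p = 0.0225) and with DESeq2's size factors (adjusted p = 0.0179).

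ORR1E_dup7675, the ORR1E insertion with the highest mean count, had 3.28 to 26.1 normalized counts (median 17.5) in LOF and 0 to 18.5 (median 5.42) in CONTROL embryos. It did not pass (1.08 ± 0.54, adjusted p = 0.172), but did with TMM (1.74, adjusted p = 0.0216) and with DESeq2's size factors (1.85, adjusted p = 0.0191). ORR1E_dup1197 had 0 to 6.14 (median 2.41) and 0 to 27.1 (median 6.72) in LOF and CONTROL embryos (-1.80 ± 0.72, adjusted p = 0.0796), passing without CONTROL embryo 9 (adjusted p = 0.0213). Both lower ORR1E insertions named by their p were rare in LOF embryos. ORR1E_dup20975 had 3 reads in 3 LOF embryos and 53 in the 9 CONTROL embryos, whose values of 1.69 to 12.1 (median 7.42) all lay above those of LOF embryos, a ratio of 26.1 (95% counting interval 8.46 to 131, adjusted p = 0.000435). ORR1E_dup8525, which met the rule through CONTROL embryos alone, had its 5 LOF reads in embryo 11 and 42 reads in 8 CONTROL embryos (median 4.45 normalized counts, -3.50 ± 0.87, adjusted p = 0.00436), a call lost with DESeq2's size factors (adjusted p = 0.0522). ORR1E_dup5987 had 12 reads in 5 LOF embryos and none in CONTROL embryos, which did not pass (adjusted p = 0.112). With 3 counts over the CONTROL embryos as the floor, its LOF mean was 3.45-fold higher. It met the rule through LOF embryos alone, so that the choice of insertions bears on its direction. It passed with TMM (adjusted p = 0.0476), DESeq2's size factors (adjusted p = 0.0431) and edgeR's legacy dispersion (adjusted p = 0.0381).

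ORR1F_dup7061 was the third most read of all 625 insertions. It had 29.5 to 177 normalized counts (median 110) in CONTROL and 0 to 30.2 (median 9.02) in LOF embryos, where only CONTROL embryo 9 came down to the LOF range. Its log2 fold change was -3.46 ± 0.55 (adjusted p = 8.6e-05). ORR1F_dup19775 had 6.65 to 35.4 (median 13.4) in CONTROL and 0 to 5.81 (median 1.46) in LOF embryos, without overlap (-3.03 ± 0.58, adjusted p = 0.00026). ORR1F_dup19687 leaned the other way with 7.37 to 44.7 (median 20.3) in LOF and 0 to 31.2 (median 13.5) in CONTROL embryos and did not pass (0.67 ± 0.46, adjusted p = 0.355), except with TMM (1.36, adjusted p = 0.0468) and DESeq2's size factors (1.51, adjusted p = 0.0254). ORR1F_dup21675 had 16 reads in 5 LOF embryos and none in CONTROL embryos, which did not pass (adjusted p = 0.0966). With 3 counts over the CONTROL embryos as the floor, its LOF mean was 4.41-fold higher. It met the rule through LOF embryos alone, so that the choice of insertions bears on its direction. It passed without LOF embryo 11 (adjusted p = 0.0384), with TMM (adjusted p = 0.0396) and with DESeq2's size factors (adjusted p = 0.0293). It also passed with edgeR's legacy dispersion (adjusted p = 0.0348) and in the 14 embryos whose numbers both groups share (adjusted p = 0.0421).

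In ORR1G, the oldest and smallest group, ORR1G_dup1439 had 0 to 39.7 normalized counts (median 15) in CONTROL and 0 to 3.18 (median 0.732) in LOF embryos (-3.72 ± 0.66, adjusted p = 0.000137). CONTROL embryo 2, with no read, was the 1 CONTROL embryo within the LOF range. ORR1G_dup2326 was lower with 4 reads in LOF and 38 in CONTROL embryos, 4 of which had a read (-3.72 ± 1.30, adjusted p = 0.0437). CONTROL embryo 1 held 52.4% of its reads, and without that embryo the value was -2.50 (adjusted p = 0.223). The call was also lost without CONTROL embryo 3, 6 or 10 or LOF embryo 5, 6, 7, 9, 10 or 11. It was lost as well with TMM (adjusted p = 0.125), with DESeq2's size factors (adjusted p = 0.151) and in DESeq2 (adjusted p = 0.0534). The internal part ORR1G-int_dup48 had medians of 3.18 in LOF and 4.45 in CONTROL embryos (-0.68 ± 0.63, adjusted p = 0.514). ORR1G_dup3666, the 1 ORR1G insertion with a log2 fold change over 0, had 7 LOF and 5 CONTROL reads (0.02, adjusted p = 0.998), with the 5 CONTROL reads in embryo 8. It met the rule through LOF embryos alone.

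**Figure D4:**
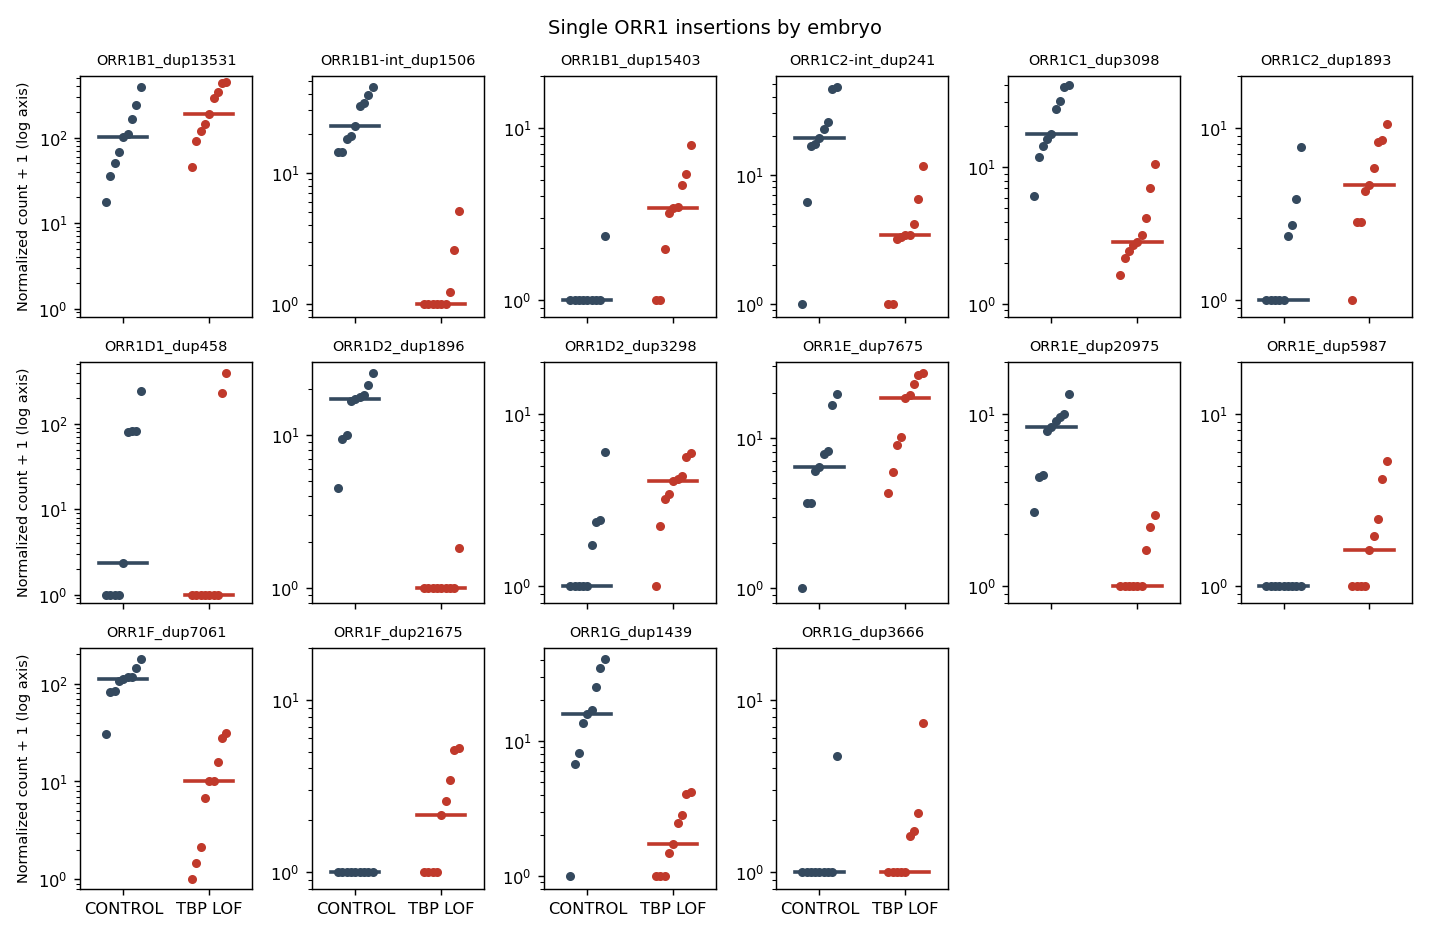
Normalized counts plus 1 (log axis) of single insertions in 9 CONTROL and 9 TBP LOF embryos, 1 point per embryo with lines at the medians. For ORR1B1-int_dup1506, ORR1D2_dup1896 and ORR1E_dup20975 each LOF embryo lies below each CONTROL embryo, while ORR1D1_dup458 has high counts in some embryos of both groups and 0 in others.

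Counts of whole subfamilies, in which each read on any copy is kept, cover the copies below the rule as well. Summed insertion counts made up 96.7% of these subfamily counts. Of 19 subfamily counts (9 LTR and 10 internal), 12 were lower in TBP LOF embryos and 0 higher in edgeR's test, with 15 (78.9%) at an unadjusted p under 0.05, all of them with a log2 fold change under 0. Of the 19358 genes and TE families in this fit 34.7% were lower and 1.32% higher, and 43.6% had an unadjusted p under 0.05. DESeq2 gave 13 of the 19 lower and 0 higher, beside 30.7% and 1.07% of all features. The median log2 fold change of the 19 was -0.99, that of all features -0.80. With TMM 3 of the 19 were lower and 0 higher (ORR1B1-int, ORR1C2 and ORR1C2-int), beside 14.3% lower and 15.6% higher of all features, whose median moved to 0.10.

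The lowest log2 fold changes belonged to internal parts. ORR1C2-int had 7.99 to 27.0 normalized counts (median 13.8) in LOF and 25.1 to 89.3 (median 57.8) in CONTROL embryos, and its log2 fold change was -1.95 ± 0.35 (adjusted p = 1.35e-05). ORR1B1-int had 30.4 to 192 (median 86.1) and 174 to 398 (median 280), with -1.80 ± 0.32 (adjusted p = 1.06e-05). In both the groups overlapped only at their edges. ORR1E-int (-1.70 ± 0.40, adjusted p = 0.000539), ORR1D-int (-1.46 ± 0.48, adjusted p = 0.0121) and ORR1B2-int (-1.03 ± 0.35, adjusted p = 0.0155) were lower too. The other internal parts did not pass, namely ORR1C1-int (-0.77, adjusted p = 0.15), ORR1D1-int (-0.83, adjusted p = 0.0678), ORR1D2-int (-0.83, adjusted p = 0.129), ORR1F-int (-0.26, adjusted p = 0.782) and ORR1G-int (-0.75, adjusted p = 0.257). The latter 2 rest on 66 and 122 reads over the 18 embryos.

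Among the LTRs ORR1C2 was lowest, with 43.0 to 195 normalized counts (median 133) in LOF and 159 to 428 (median 316) in CONTROL embryos (-1.35 ± 0.30, adjusted p = 0.000301). ORR1G followed with 11.1 to 52.4 (median 28.8) against 41.4 to 115 (median 83.1) (-1.31 ± 0.33, adjusted p = 0.00136), then ORR1C1 (-1.16 ± 0.30, adjusted p = 0.00182), ORR1D1 (-1.08 ± 0.32, adjusted p = 0.00682), ORR1F (-0.99 ± 0.29, adjusted p = 0.0056), ORR1D2 (-0.86 ± 0.28, adjusted p = 0.0137) and ORR1B2 (-0.75 ± 0.29, adjusted p = 0.0351). The ORR1B2 call was lost without LOF embryo 2, 5, 7, 9 or 11 or CONTROL embryo 1, 6 or 8, and the value was 0.07 with TMM (adjusted p = 0.807). With no filter on low counts it was lost as well (adjusted p = 0.0628). ORR1B1, with the most reads, had 249 to 1332 (median 670) in LOF and 605 to 1696 (median 1069) in CONTROL embryos and did not pass (-0.67 ± 0.29, adjusted p = 0.068), nor did ORR1E (-0.68 ± 0.29, adjusted p = 0.0648). Both passed without LOF embryo 8 (-0.83, adjusted p = 0.0187 and -0.82, adjusted p = 0.0251) and without CONTROL embryo 9 (-0.74, adjusted p = 0.0453 and -0.76, adjusted p = 0.0455), ORR1B1 also without LOF embryo 10 (adjusted p = 0.0491), and ORR1E without LOF embryo 2 (adjusted p = 0.0479) and in DESeq2 (adjusted p = 0.0494). ORR1D1-int passed without LOF embryo 8 or 10 or CONTROL embryo 1 or 9 (adjusted p = 0.0187 to 0.0463). Neighbours in this order lay within their standard errors of each other.

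In FOXJ3 LOF embryos none of the 19 subfamily counts was lower or higher in edgeR's test with library batch as a covariate, nor in DESeq2, and 1, ORR1C1, had an unadjusted p under 0.05 in either. Of the 19519 features of edgeR's fit 0.0359% were lower, 0 were higher and 1443 had an unadjusted p under 0.05. The log2 fold changes lay between -0.29 and 0.31 (median -0.10) with a smallest adjusted p of 0.669. ORR1C1 had 118 to 271 normalized counts (median 186) in 16 LOF and 106 to 313 (median 234) in 13 CONTROL embryos, with -0.29 ± 0.14 (adjusted p = 0.669), -0.30 within batch 1 and -0.29 within batch 2. ORR1B1-int (-0.14 ± 0.13, adjusted p = 0.846) and ORR1C2-int (0.30 ± 0.24, adjusted p = 0.807), lowest in the TBP experiment, overlapped between the groups over most of their range. The values of both experiments were scaled in different ways, and the difference between their effects was not tested.

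**Figure D5:**
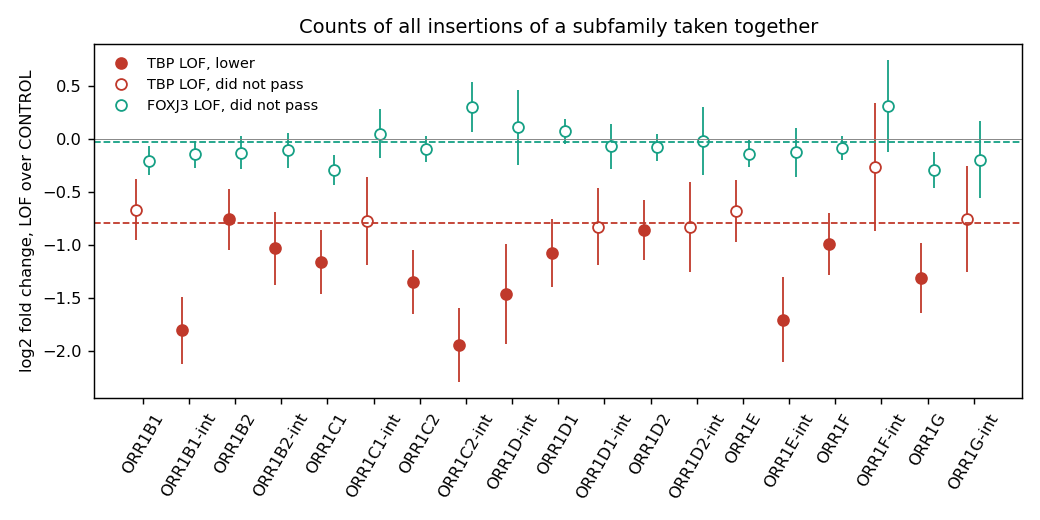
Log2 fold change, LOF over CONTROL, with its standard error for the counts of each ORR1 subfamily in the TBP (red) and FOXJ3 (green) experiments, filled where lower. Dashed lines are the medians of all features, -0.80 and -0.03. In the TBP experiment 12 of 19 counts are lower, and in the FOXJ3 experiment none passes the test.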

How the data were processed

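The authors trimmed the reads of single embryos, mapped those of transcript 5' ends with STAR (version 2.7.11a in the submitters' processing notes) to GRCm38, and counted genes (gencode M20) and RepeatMasker elements with TEcount per TE family and TElocal per insertion. The deposited values are estimated counts (expected counts) without normalization, all whole numbers. How reads of several copies were shared out, or whether strand was used, is not given in the sources read here, and reads of similar ORR1 copies or of overlapping genes may be divided in ways that move single values.

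Here, genes and TE insertions with 1 or more reads in 25% or more of the TBP embryos were fitted together with edgeR 4.0.16 (two-sided quasi-likelihood test, glmQLFit, Benjamini-Hochberg adjustment over all features, threshold 0.05) in R 4.3.3, with median-of-ratios size factors computed on 42 ERCC transcripts. Standard errors were derived from edgeR's F statistic. TE families were fitted likewise, in the FOXJ3 experiment with TMM and batch, where the authors used DESeq2. Tested on simulated counts, the fit gave back the fold changes set, but a larger share of its calls than the threshold allows fell on unchanged features. Most of the features set to change were not called, though they were chosen among the better read ones. An insertion that did not pass the test is therefore not shown to be unchanged. Counting intervals are exact (conditional binomial) and cover counting error only, since PCR copies of 1 molecule may be counted as separate reads. No embryo pair had identical tables. Per letter, the text names the 2 insertions with the highest mean normalized count, the 2 lower ones and the 1 higher one with the smallest p, and all subfamily counts. The members, the lists and these rules were chosen with earlier results of these data known. Alternatives were TMM, DESeq2's size factors, ERCC sums, DESeq2 1.42.0, other filters, all 19 embryos, a block on embryo number, edgeR's legacy dispersion and leaving out each embryo.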

Additional observations from a re-analysis of the deposited data

Results flagged for a closer look

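Within the groups of 9 TBP experiment embryos, 90 sets of normalized counts (26 named insertions and 19 subfamily counts, in LOF and CONTROL embryos) were searched on the log2(normalized count + 1) scale for a single embryo far from the others by Dixon's criterion, which chance alone meets in about 1 of 20 sets. It was met 13 times. The rate of 1 of 20 holds for normally distributed values. Some sets here were mostly zeros, and insertions are part of the subfamily counts, so that the 13 cannot be compared with this rate. In some groups with few reads the embryo apart was the highest. It was the only one with a read for ORR1B1_dup15403 in CONTROL embryo 10 (1.34), ORR1D2_dup1896 in LOF embryo 10 (0.82), ORR1E_dup8525 in LOF embryo 11 (1.21) and ORR1G_dup3666 in CONTROL embryo 8 (3.71). Other embryos of the group had reads too for ORR1G_dup3666 in LOF embryo 8 (6.35, nearest 1.21) and ORR1D2_dup3298 in CONTROL embryo 4 (4.99, nearest 1.43). In the other groups the embryo apart was the lowest. ORR1F_dup19687 had 0 in CONTROL embryo 3, ORR1G_dup1439 had 0 in CONTROL embryo 2, and ORR1F_dup7061 had 29.5 in CONTROL embryo 9, where the nearest CONTROL embryo had 81.3. CONTROL embryo 9, the deepest library, was also low for the subfamily counts of ORR1D1 (215, nearest 508), ORR1F (218, nearest 372) and ORR1C1-int (9.50, nearest 18.1). ORR1C1-int was low in LOF embryo 11 as well (0.724, nearest 5.53), the deepest LOF library. Without CONTROL embryo 9, 140 of the 625 insertions were lower (22.4%, where 20.7% of all features were), and without LOF embryo 11, 79 (12.6%, where 13.6% of all features were).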

How the results depend on the processing

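The 111 lower insertions became 47 with TMM, 44 with DESeq2's size factors, 56 with no filter (8036 insertions tested), 50 with reads required in both groups, 5 with edgeR's filter, 32 with embryo number as a block and 49 in the same 14 embryos without the block. As a share of those tested this was 0.697% with no filter, where 2.49% of all features were lower, 5.12% with the block (7.97% of all) and 7.84% without it (8.74% of all). ERCC sums gave 115 (18.4%, against 17.6% of all features), DESeq2 83 (13.3% against 15.1%), all 19 embryos 121 (18.5% against 18.4%) and the legacy dispersion 103 (16.5% against 14.6%), the last chosen after seeing the data, as was the fit without the block. The 1 higher insertion became 15 with TMM, 18 with DESeq2's size factors and 3 in DESeq2 (0.48% in DESeq2, where 0.552% of all features were higher). It became 4 with the legacy dispersion (0.64% against 0.76% of all) and 2 with all 19 embryos (0.306% against 0.779%). In the 14 embryos without the block 2 were higher (0.32% against 0.752%). With no filter, with reads in both groups and with the block it became 0, where 0.146%, 0.747% and 0.698% of all features were higher. The median log2 fold change went from -1.34 to -0.64 (TMM), -0.51 (DESeq2's size factors), -0.24 (edgeR's filter), -0.80 (reads in both groups), -1.11 (no filter, where all features had -1.11), -0.998 (block) and -0.97 (the same embryos without it). Leaving out 1 embryo gave 79 to 140 lower (12.6% to 22.4%, where 13.6% to 20.7% of all features were lower) and medians of -1.44 to -1.17. It gave 0 to 3 higher (0% to 0.48%, where 0.451% to 0.888% of all features were higher). Of the subfamily counts 3 of 12 stayed lower with TMM, where ORR1B2 had 0.0739. With 1 embryo left out 11 to 15 of the 19 were lower, where 30.5% to 36.2% of all features were lower. In the fit with the block, which also has only the 14 embryos with shared numbers, the calls of ORR1C1_dup1936, ORR1B1_dup15403, ORR1G_dup2326, ORR1B2-int and ORR1B2 were lost and those of no other named insertion or subfamily. ORR1G_dup2326 was lost in these embryos without the block too, which was not fitted for the subfamily counts. Same-numbered LOF and CONTROL embryos did not all deviate together (correlations over 8778 genes of -0.05 to 0.12 in 7 pairs, 2 of them over 0.1, with 1 LOF embryo closest to its own number), so the number is not taken as a pairing. Values that passed in neither fit changed sign in 18 (insertions), 9 (TBP) and 18 (FOXJ3) comparisons with an alternative. FOXJ3 gave 0 lower subfamily counts under each alternative, blocked and within batches included. The cause of these changes was not tested, apart from the fewer insertions or embryos that the filters and the left-out embryos entail. Depth limits the precision, with a median of 22 reads per insertion.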

Other observations

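Among the 625 insertions, 2 had reads in at most 9 of the 18 embryos and yet 50 or more normalized counts in one of them (0.32%, against 2.67% of all TE insertions tested), a measure chosen after seeing the data. ORR1D1_dup458 was read in LOF embryos 1 and 2 and CONTROL embryos 1, 3, 5, 6 and 10. ORR1B1_dup13194, which the naming rule does not hold, was read in LOF embryos 10 and 11, with 95 and 33 reads, and in CONTROL embryos 8, 9 and 10, with 15, 33 and 4 reads, and had 0 reads in each of the other 13 embryos. Both insertions were thus read in embryos of both groups, and 1 embryo, CONTROL 10, had reads of both.

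At least 50% of the reads came from 1 embryo for 69 of the 625 insertions (11%), close to the 11.3% of all TE insertions tested, and for 17.0% of ORR1E and 13.2% of ORR1B insertions.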
